A study of Mus musculus with 2 samples.

Results

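Chromatin accessibility was examined at 7 mouse genes of the POU transcription factor family, Pou2f1, Pou2f2, Pou3f1, Pou3f2, Pou3f3, Pou3f4 and Pou6f1, out of 21911 named protein-coding genes. The genes were taken by name from the annotation of the mouse assembly mm10 and belong to POU classes 2, 3 and 6, of which they are not all the genes. DNase-seq, a sequencing assay of where DNase I can cut chromatin, had been run on midbrain from healthy B6NCrl mouse embryos at 14.5 days of gestation, male and female embryos pooled. There was 1 group of 2 biological replicates, kept as separate biosamples under the same donor entry. The labels named no mutation, transgene or treatment, and the spread between the replicates may be partly technical.

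POU proteins bind DNA through a POU-specific domain joined to a POU homeodomain, and many of them recognise the octamer ATGCAAAT. Class 3 genes (Pou3f1 or Oct-6, Pou3f2 or Brn-2, Pou3f3 or Brn-1, Pou3f4 or Brn-4) have no introns and act in neural progenitors and neurons. Pou2f1 (Oct-1) is made in most cell types, Pou2f2 (Oct-2) is best known from B cells and is also made in neurons, and Pou6f1 (Brn-5) is found in postmitotic neurons.

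All 7 promoters were open in both replicates. What set the genes apart from each other was the surroundings: Pou3f3 and Pou3f2 each sat within a dense run of peaks spanning the gene and the sequence on both sides, Pou3f4 had a smaller run of that kind, and at Pou2f1, Pou2f2, Pou3f1 and Pou6f1 most peaks lay farther than 15 kb from the 5′ end. Most of the window also lay beyond 15 kb at every gene, since windows were 103 to 238 kb long. Pou2f1, Pou2f2, Pou3f1 and Pou6f1 had 5 to 10 shared peaks within 15 kb, above the median of 3 over all genes. The split of Pou3f4 from Pou3f1 depended on that distance: within 20 kb Pou3f1 had 16 shared peaks and Pou3f4 15. Of all 21911 genes, none had more shared peaks within 15 kb of its 5′ end than Pou3f3, although 43 did on the peaks of replicate 1 alone.

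A peak is an interval of 150 bp, and its value is the authors' own signal value, a whole number of at most 150. Replicate 1 held 710176 peaks with a median value of 6, and replicate 2 held 267958 with a median of 51. The values were therefore not compared between replicates as sizes, and percentile ranks within a replicate were used. A peak was called shared when a replicate 2 peak overlapped a replicate 1 peak by at least 1 bp, which held for 64.0% of replicate 2 peaks and left 171429 shared peaks. Read depth was unknown. As a check on the tissue, the midbrain genes En1, En2, Otx2 and Pax7 had shared promoter peaks, but so did the trunk gene Hoxb9, at values of 12 in replicate 1 and 84 in replicate 2. The liver gene Alb had none. In whole tissue, openness in few cells and weak openness in many cannot be told apart.

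The sequence immediately around the starts of the 3 class 3 genes with a RefSeq window is shown because it shares a feature. The windows run from 250 bases before to 50 bases after the RefSeq start (GRCm38.p6), at chr1:42695518-42695817 on the plus strand for Pou3f3, chr4:22488317-22488616 on the minus strand for Pou3f2 and chrX:110814129-110814428 on the plus strand for Pou3f4. Capitals mark CCAAT, or ATTGG where it lies on the other strand.
Pou3f3 promoter: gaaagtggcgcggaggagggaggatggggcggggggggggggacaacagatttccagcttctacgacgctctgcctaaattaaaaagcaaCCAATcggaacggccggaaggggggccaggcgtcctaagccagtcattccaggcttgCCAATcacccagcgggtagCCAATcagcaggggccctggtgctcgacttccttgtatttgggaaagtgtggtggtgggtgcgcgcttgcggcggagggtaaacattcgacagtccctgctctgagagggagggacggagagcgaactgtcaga
Pou3f2 promoter: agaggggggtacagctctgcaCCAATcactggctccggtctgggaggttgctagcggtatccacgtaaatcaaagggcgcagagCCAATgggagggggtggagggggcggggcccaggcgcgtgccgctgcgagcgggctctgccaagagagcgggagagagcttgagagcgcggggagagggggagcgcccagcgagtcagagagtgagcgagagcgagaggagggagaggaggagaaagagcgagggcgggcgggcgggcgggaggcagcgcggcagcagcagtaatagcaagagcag
Pou3f4 promoter: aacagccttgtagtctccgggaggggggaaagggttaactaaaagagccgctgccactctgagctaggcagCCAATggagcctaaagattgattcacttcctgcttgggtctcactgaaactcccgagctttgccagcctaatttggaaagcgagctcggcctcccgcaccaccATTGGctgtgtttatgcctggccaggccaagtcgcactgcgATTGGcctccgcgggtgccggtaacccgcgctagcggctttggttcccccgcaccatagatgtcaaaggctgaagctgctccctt
The strongest promoter peak of each of these 3 genes lay wholly inside the window printed. CCAAT, a search added after the data were seen, occurred 3 times for Pou3f3 and 2 times for Pou3f2, all in the direction of transcription. In Pou3f4 it occurred 3 times, 1 of them in the direction of transcription. The 5 other windows of the family found in RefSeq, 3 for Pou2f1 and 1 each for Pou2f2 and Pou6f1, held none. Not all of them were at a 5′ end. The Pou2f2 window, at chr7:25132411-25132710, lay inside the gene. So did the Pou2f1 windows at chr1:165953022-165953321 (28.7% GC) and chr1:165934899-165935198 (38% GC). Over all 32851 RefSeq promoter windows, 37.4% held CCAAT at least once on either strand, 11.7% at least 2 times and 3.37% at least 3 times. RefSeq windows were found for 6 of the 7 genes, all but Pou3f1. Within the 150 bp of the strongest promoter peak of replicate 2, CCAAT occurred 2 times on either strand in each of the 4 class 3 genes, Pou3f1 included, and 0 times in Pou2f1, Pou2f2 and Pou6f1. The shares above are for RefSeq windows, and none is given for such peaks over all genes. The counts in peaks therefore have no background beside them. For Pou3f2, Pou3f3 and Pou3f4 they repeat sites already counted in the windows. The Pou3f1 peak was centred 723 bp into the gene, not at the start. No difference between the classes is read from these counts.

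The 4 shared peaks with an exact octamer are shown next, since the octamer is the motif that POU proteins bind. They lay at chr1:165948356-165948505 and chr1:165935116-165935265 inside Pou2f1, at chr4:22494096-22494245 upstream of Pou3f2 and at chr1:42683416-42683565 upstream of Pou3f3. Sequences are those of the plus strand of GRCm38.p6, with the octamer in capitals.
Pou2f1 intron peak: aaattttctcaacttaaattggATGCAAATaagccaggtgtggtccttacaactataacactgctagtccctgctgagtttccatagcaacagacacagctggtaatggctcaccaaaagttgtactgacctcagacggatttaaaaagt
Pou2f1 internal promoter peak: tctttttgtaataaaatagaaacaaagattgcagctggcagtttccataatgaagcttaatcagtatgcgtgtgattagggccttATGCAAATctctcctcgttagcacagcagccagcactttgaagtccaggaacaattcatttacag
Pou3f2 upstream peak: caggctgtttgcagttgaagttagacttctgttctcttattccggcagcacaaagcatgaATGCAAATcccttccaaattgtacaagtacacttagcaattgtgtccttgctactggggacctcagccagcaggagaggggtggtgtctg
Pou3f3 upstream peak: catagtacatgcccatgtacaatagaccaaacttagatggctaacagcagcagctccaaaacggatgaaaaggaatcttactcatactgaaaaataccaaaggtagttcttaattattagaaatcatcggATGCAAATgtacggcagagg
The internal promoter peak of Pou2f1 was picked after its values were seen. It had values of 77 in replicate 1 and 118 in replicate 2. The other three were middling or weak, with 6 and 51 in the Pou2f1 intron, 24 and 78 upstream of Pou3f2, and 8 and 53 upstream of Pou3f3. None was among the 3 highest distal peaks of its gene.

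A promoter peak was any peak overlapping the 1 kb on either side of any annotated start. Of the 7 POU genes, 7 had a shared promoter peak, against 68.9% of all genes. Likewise 7 of 7 had a promoter peak in each replicate, whether or not the peaks overlapped, against 69.9% of all genes. Since most genes have one, an open promoter did not mark these genes out.

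**Figure D1:**
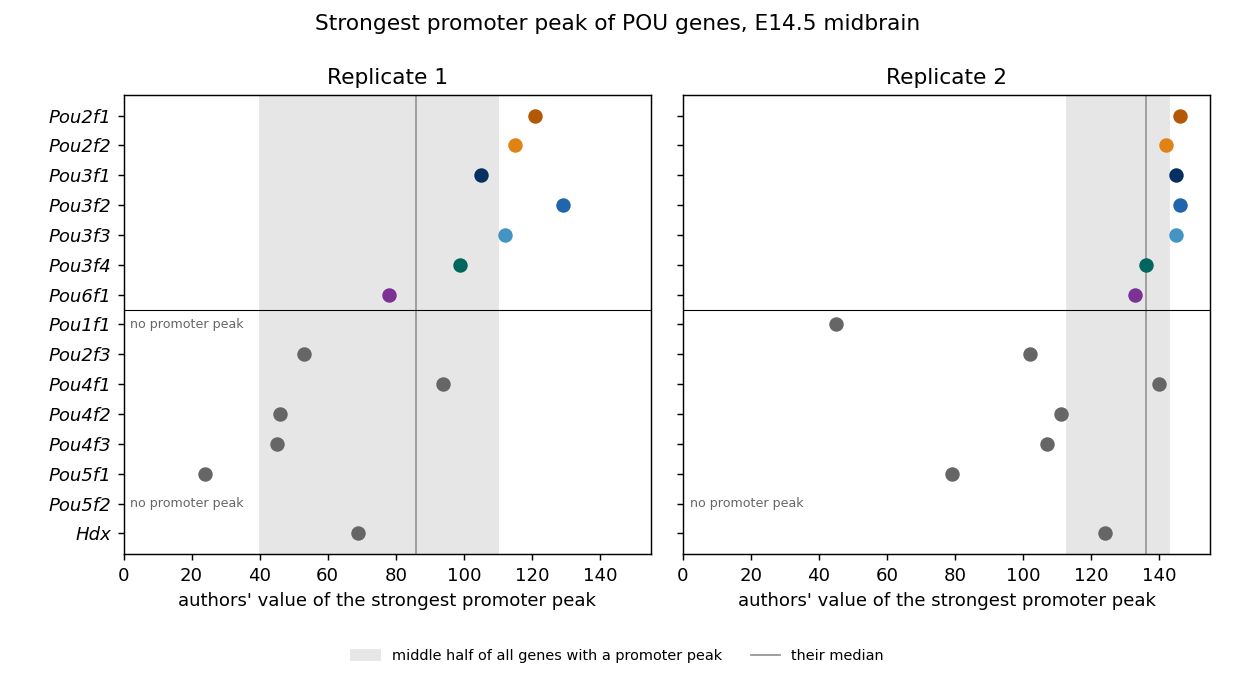
Authors' value of the strongest promoter peak (x axis, no unit, whole numbers up to 150) for the 7 POU genes above the line and 8 other POU genes below it, replicate 1 on the left and replicate 2 on the right. The grey band is the interquartile range and the grey line the median of all genes with a promoter peak. In replicate 1 Pou6f1, at 78, was the only one of the 7 genes below the median of 86.

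Among the class 2 genes, the strongest promoter peak of Pou2f1 had a value of 121 in replicate 1 and 146 in replicate 2, at percentiles 91.9 and 91.1 of all genes, where genes without a promoter peak count as lowest. Pou2f1 lies at chr1:165865154-166002678 on the minus strand and has 14 annotated starts in 5 clusters. Its 5′ cluster, where 9 transcripts begin, held 4 peaks in replicate 1 (values 32, 22, 121 and 94) and 3 in replicate 2 (values 89, 146 and 139). A second cluster 67667 bp into the gene, where 5 transcripts begin, had its own peaks, with values of 30, 77 and 52 in replicate 1 and of 54, 97 and 118 in replicate 2. The cluster at 89395 bp had peaks of at most 31 in replicate 1 and 93 in replicate 2. At 110559 bp, a start of 1 transcript not annotated as protein-coding had a peak of 41 in replicate 2 and none in replicate 1. The last cluster, at 122518 bp, had none in either replicate, so accessibility marked some starts of this widely expressed gene and not others.

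In Pou2f2 (chr7:25087344-25179726, minus strand) the starts were split in another way. The annotated 5′ end belongs to a single transcript that is not annotated as protein-coding, yet it carried the strongest promoter peak, with a value of 115 in replicate 1 and 142 in replicate 2 (percentiles 86.0 and 77.3 of genes). The 8 transcripts of the main coding cluster begin 47214 bp further in, and the window there held 1 peak in each replicate, with values of 84 and 134. At the 5′ end the replicates did not match fully: the replicate 2 peak of value 136 at chr7:25179456-25179605 overlapped no replicate 1 peak. Another start, 58868 bp in, had no peak in either replicate.

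The 4 class 3 genes have 1 annotated start each. For Pou3f2 (chr4:22482780-22488366, minus strand), a regulator of neuronal differentiation, the promoter peaks had values of 44 and 129 in replicate 1, and 95, 146 and 97 in replicate 2. Those of Pou3f3 (chr1:42695768-42703176, plus strand), which acts in the developing brain together with Pou3f2, had 74, 112 and 26 in replicate 1, and 126, 145 and 98 in replicate 2. Both genes thus had a leading peak at the start and weaker ones beside it.

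Pou3f1 (chr4:124656807-124660655, plus strand), also known from myelinating Schwann cells, had promoter peaks of 69 and 105 in replicate 1 and of 73, 135 and 145 in replicate 2. Its highest promoter peak was centred 723 bp into the gene and not at the start, in both replicates. Pou3f4 (chrX:110814280-110817207, plus strand), a gene of the developing inner ear and brain, had 28, 99 and 20 in replicate 1, and 61, 73, 136 and 70 in replicate 2. It is X-linked and the embryos were of both sexes, so the number of X copies and accessibility cannot be told apart in its values.

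Pou6f1 (chr15:100575318-100599984, minus strand) had the lowest strongest promoter peak of the 7 in both replicates, with a value of 78 in replicate 1 and 133 in replicate 2, at percentiles 57.6 and 58.9 of genes. Its 5′ cluster held 5 peaks in each replicate, with values of 45, 33, 33, 78 and 19 in replicate 1 and of 121, 100, 103, 133 and 47 in replicate 2. Of the 5 internal start clusters, 4 had no peak in either replicate and the last had a single replicate 1 peak of value 5. Accessibility at Pou6f1 was therefore limited to the 5′ cluster among its annotated starts, apart from that weak peak.

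Ordered by strongest promoter peak, replicate 1 gave Pou3f2 129, Pou2f1 121, Pou2f2 115, Pou3f3 112, Pou3f1 105, Pou3f4 99 and Pou6f1 78. Replicate 2 gave 146 for Pou3f2 and Pou2f1, 145 for Pou3f3 and Pou3f1, 142 for Pou2f2, 136 for Pou3f4 and 133 for Pou6f1. Pou3f2 was first or tied for first, Pou3f4 sixth and Pou6f1 last in both. The order of Pou2f1, Pou2f2, Pou3f1 and Pou3f3 changed between the replicates or was tied, so it was not resolved. Over all genes with a promoter peak the median was 86 in replicate 1 and 136 in replicate 2.

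CpG content was high at most of these starts. Within 1 kb of the 5′ end, Pou2f1 had 212 CpG (percentile 99.5 of genes), Pou3f1 144, Pou3f2 137, Pou6f1 128, Pou3f3 124 and Pou2f2 123, against a median of 61 over all genes. Pou3f4 had 69, at percentile 55.1, and a GC content of 50.6%, close to the median of 51.2%.

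Shared peaks were then counted over each gene and the 50 kb flanking it at either end. The 7 genes had 231 shared peaks in all, with a median of 34, against a median of 12 over all genes. Pou3f3 had 62, Pou3f2 39, Pou3f1 36, Pou2f1 34, Pou2f2 27, Pou3f4 17 and Pou6f1 16. The windows differ in length, from 103 kb at Pou3f4 to 238 kb at Pou2f1, and per 100 kb the counts were 57.7 for Pou3f3, 36.9 for Pou3f2, 34.7 for Pou3f1, 16.5 for Pou3f4, 14.3 for Pou2f1, 14.0 for Pou2f2 and 12.8 for Pou6f1, against a median of 8.53. On that scale 2 genes of all 21911 exceeded Pou3f3, 88 exceeded Pou3f2 and 126 exceeded Pou3f1. Below Pou3f3, the order of the counts depended on how peaks were matched: when the replicates' peaks had to overlap by 75 bp, Pou3f1 had 34, Pou2f1 31, and Pou3f2 and Pou2f2 26 each.

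**Figure D2:**
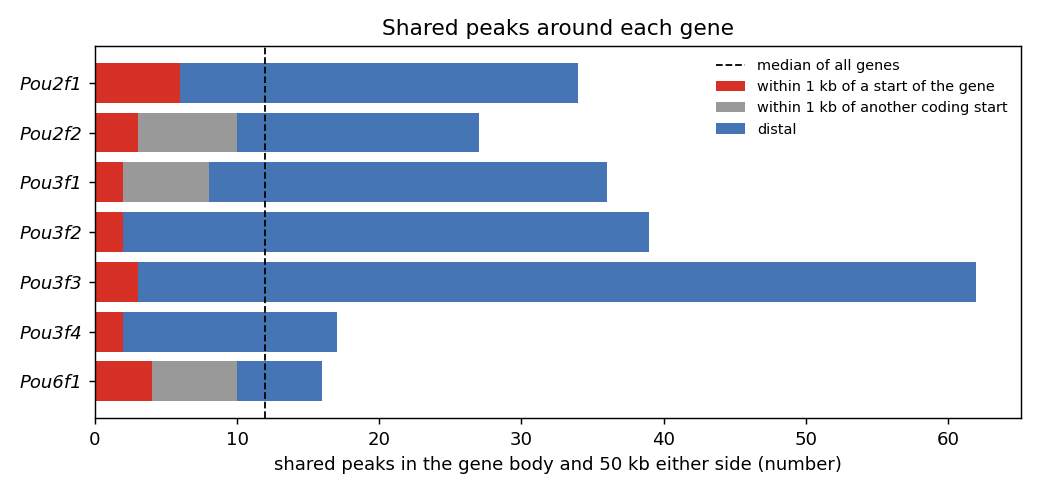
Number of shared peaks (x axis) over each POU gene and its 50 kb flanks, split into those centred within 1 kb of a start of the gene, those within 1 kb of a coding start of another gene, and distal ones. The dashed line is the median of all genes, 12, and all 7 bars pass it.

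Of the 231 shared peaks, 190 were distal, meaning centred more than 1 kb from every start of the gene and from every coding start. They numbered 59 for Pou3f3, 37 for Pou3f2, 28 each for Pou3f1 and Pou2f1, 17 for Pou2f2, 15 for Pou3f4 and 6 for Pou6f1, against a median of 7 over all genes. Per 100 kb no gene exceeded Pou3f3 (54.9), while Pou6f1 (4.81) lay just under the median of 4.92. Other coding starts took 7 of the shared peaks around Pou2f2 (at Grik5, Zfp574, Dedd2 and Zfp526), 6 around Pou3f1 (at 3100002H09Rik, Utp11 and Fhl3), 6 around Pou6f1 (at Tfcp2, Dazap2 and Smagp) and 0 around the other four. The distal peaks of the 7 genes had a median value of 21 in replicate 1 and 76 in replicate 2, against 18 and 60 over all 140583 shared distal peaks. A mean percentile rank of at least 90 over both replicates was reached by 41 of the 190 (21.6%), against 14.3% of all shared distal peaks. Of those 41, Pou3f3 had 17, Pou3f2 13, Pou2f2 5, Pou2f1 3, Pou3f1 2, Pou6f1 1 and Pou3f4 0, so the pooled share does not describe each gene.

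**Figure D3:**
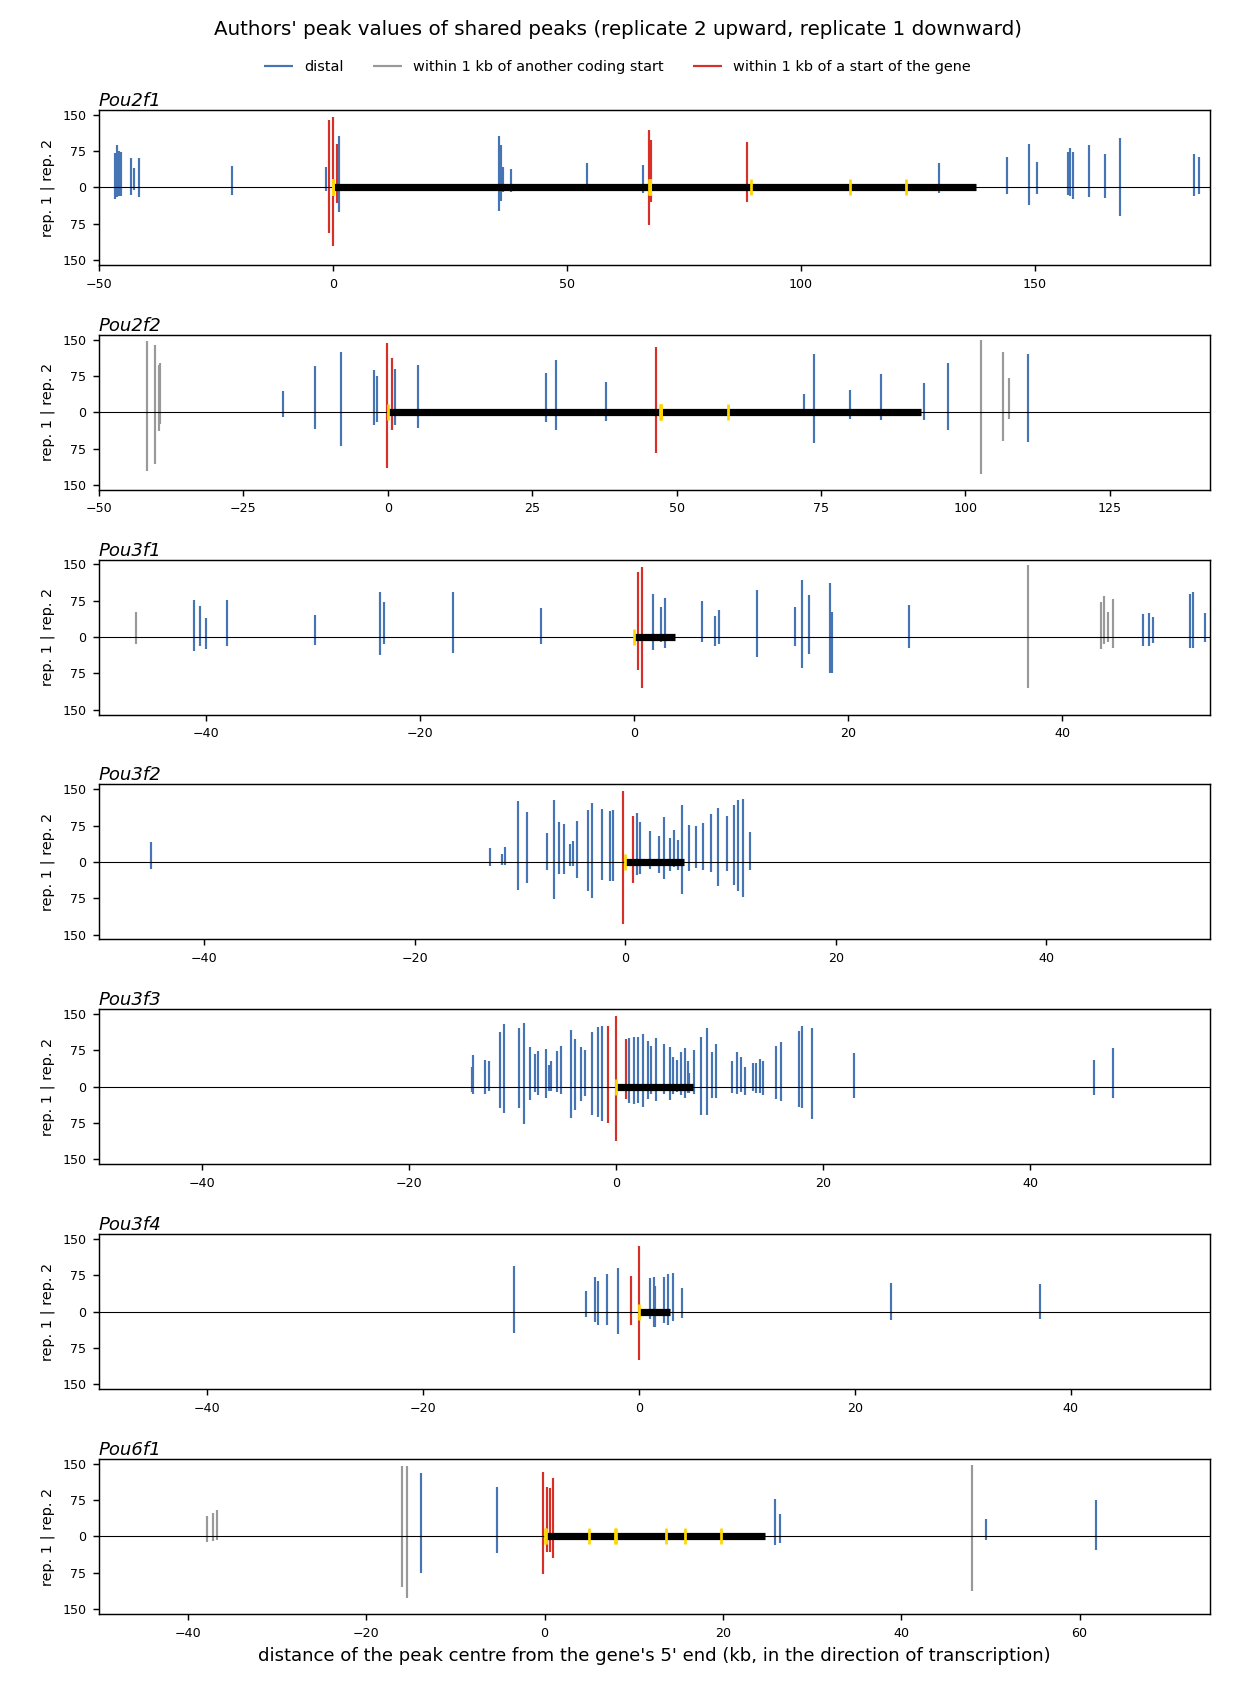
Shared peaks around each POU gene by distance of the peak centre from the 5′ end (x axis, kb, positive in the direction of transcription), drawn as lines whose length is the authors' value in replicate 2 (upward) and replicate 1 (downward). Black bars are gene bodies, yellow ticks annotated starts, and each panel has its own x scale. Around Pou3f2, Pou3f3 and Pou3f4 most lines stand close to the gene, and around the other genes they are spread over the window.

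The highest distal peaks of Pou3f3 and Pou3f2 are shown because these genes held most of the high distal peaks. They are chr1:42686776-42686925, 8918 bp upstream of the Pou3f3 5′ end, and chr4:22477096-22477245, 11196 bp downstream of the Pou3f2 5′ end and beyond the gene. The sequences are from the plus strand of GRCm38.p6, and no motif is marked.
Pou3f3 highest distal peak: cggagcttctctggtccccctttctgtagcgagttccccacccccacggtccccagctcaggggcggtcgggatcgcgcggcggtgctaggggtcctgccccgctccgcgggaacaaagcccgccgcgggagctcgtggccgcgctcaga
Pou3f2 highest distal peak: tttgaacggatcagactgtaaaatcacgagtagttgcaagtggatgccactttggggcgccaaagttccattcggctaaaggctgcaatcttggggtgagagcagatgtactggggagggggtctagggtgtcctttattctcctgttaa
The Pou3f3 peak had values of 76 in replicate 1 and 132 in replicate 2 and held 18 CpG in its 150 bp, at 72.7% GC. The Pou3f2 peak had values of 73 and 130 and held 4 CpG, at 49.3% GC. The highest distal peaks of these genes therefore did not share one base composition.

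The distal peaks of Pou3f3 filled both sides of the gene. Upstream lay 23, in the gene's exon 15 and downstream 21. The next highest after the one printed were 1358 bp upstream (values 70 and 125) and 10798 bp upstream (54 and 129). The first of these was also 398 bp from a start of the noncoding gene Pantr1. Distal as defined here does not exclude peaks near starts of other noncoding genes. All 59 lay inside an annotated gene other than Pou3f3: 23 of the shared peaks lay in Pantr1, a lincRNA gene on the upstream side, 39 in AC122898.1, a transcript overlapping Pou3f3 on the same strand, and 9 in Pantr2. Whether a peak serves Pou3f3 or one of these noncoding genes cannot be told apart from its position.

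Around Pou3f2, 18 distal peaks lay upstream, 9 in the exon and 10 downstream. The next highest were 6784 bp upstream (values 77 and 128) and 10696 bp downstream of the 5′ end (61 and 127). Of its 39 shared peaks, 38 (97.4%) were within 15 kb of the 5′ end, and the remaining one was 45044 bp upstream. A stretch of 43.8 kb inside the window held no shared peak centre, so peaks were dense at the gene and sparse in the flanks.

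The 15 kb distance was chosen after the run of peaks had been seen, and was applied to every gene. Pou3f3 had 54 shared peaks within it, Pou3f2 38, Pou3f4 15, Pou3f1 10, Pou2f2 8, Pou6f1 6 and Pou2f1 5, against a median of 3 over all genes. No gene had more than Pou3f3, and the next counts were 46 at Zic2 and 42 at Sox2, both neural transcription factor genes, and at Gm43517. More than Pou3f2 were found at 11 genes. Pou3f4 was ahead of Pou3f1 at 10 kb too, with 14 against 9, but not at 20 kb, with 15 against 16. At 10 kb (40 peaks) and at 20 kb (59 peaks) again no gene exceeded Pou3f3. The place held for shared peaks only: with the peaks of replicate 1 alone Pou3f3 had 61 and 43 genes had more, and with those of replicate 2 alone it had 60 and 1 gene had more. Of the 62 shared peaks in the Pou3f3 window, 2 overlapped the peak before them. When the replicates' peaks had to overlap by 75 bp, that window held 45.

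**Figure D4:**
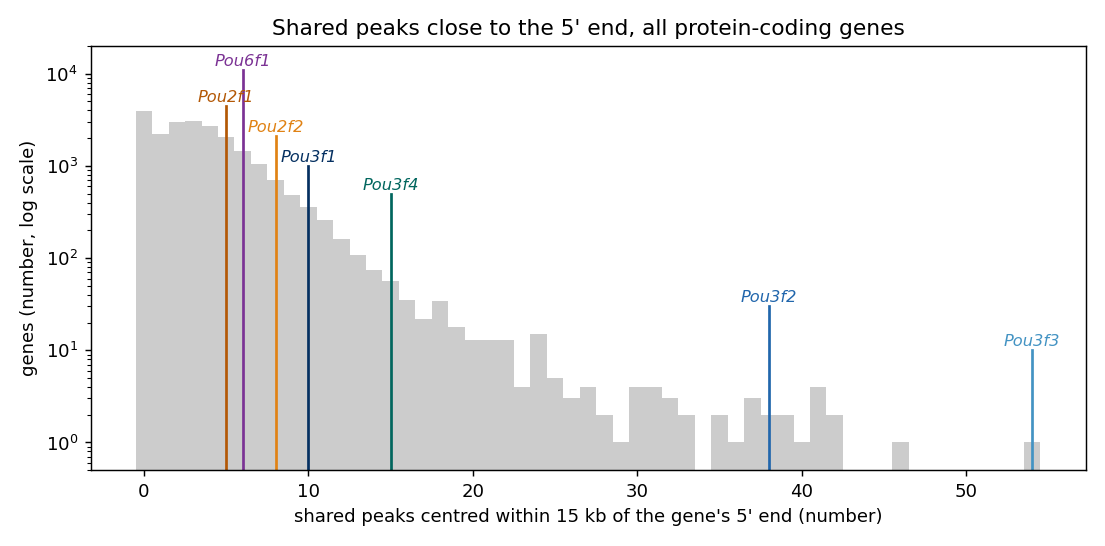
Distribution over all protein-coding genes of the number of shared peaks within 15 kb of the 5′ end (x axis), with the number of genes on a log scale (y axis) and the 7 POU genes as labelled lines whose heights have no meaning. Pou3f3, at 54, stands at the right end, and Pou2f1, at 5, is the lowest of the 7, at percentile 72.9 of genes, against a median of 3.

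Spacing was read from the same shared peaks, so it is not a separate measure. The median distance between neighbouring shared peaks was 480 bp at Pou3f3, 620 bp at Pou3f2 and 850 bp at Pou3f4. It was 1080 bp at Pou3f1, 1560 bp at Pou6f1, 1640 bp at Pou2f1 and 4050 bp at Pou2f2. Pou3f4 had 88.2% of its shared peaks within 15 kb of the 5′ end and Pou3f3 87.1%, while Pou3f1, also of class 3, had 27.8%.

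Hotspots, the broader regions of enrichment that the authors called in each replicate and that carry a −log10 q value up to 100, were used as a second measure. They covered 28.5% of the Pou3f3 window in replicate 1 and 32.3% in replicate 2, against medians of 5.77% and 5.07% over all genes. The hotspot over the Pou3f3 5′ end was 7379 bp wide in replicate 1 and 8813 bp wide in replicate 2, with 15 and 17 peaks inside it. Only 8 hotspots of replicate 1 and 13 of replicate 2 were wider anywhere in the genome.

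For Pou3f2 the hotspots covered 24.1% and 22.8% of the window. Its widest, 5145 bp in replicate 1 and 5817 bp in replicate 2, was not at the start but beyond the 3′ end, centred 9129 bp and 9193 bp downstream of the 5′ end, and 54 and 80 hotspots were wider. Pou3f1 had 14.7% and 17.7%, Pou6f1 11.5% and 9.61%, Pou2f1 8.94% and 7.57%, Pou2f2 7.92% and 10.2%, and Pou3f4 6.32% and 8.44%. Pou3f4, despite its closely spaced peaks, stood at percentile 54.5 of genes in replicate 1 and 78.6 in replicate 2.

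The distal peaks of Pou3f4 numbered 6 upstream, 5 in the exon and 4 downstream, and none reached a mean percentile rank of 90. The highest, 11570 bp upstream, had values of 45 in replicate 1 and 95 in replicate 2 and lay inside the lincRNA gene Gm44593, as did 5 of the 17 shared peaks. Around Pou3f1 the distal peaks were 9 upstream, 3 in the exon and 16 downstream. Its highest were 15743 bp (values 64 and 118) and 18363 bp (75 and 111) downstream of the 5′ end, and 9 lay inside Gm2164, an antisense noncoding gene that reaches over the Pou3f1 start.

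In Pou2f2, 9 of the 17 distal peaks were intronic. The highest stood 8124 bp upstream of the 5′ end (values 70 and 125), and the next were an intron peak 73736 bp downstream of it (64 and 120) and a peak in the glutamate receptor gene Grik5, 110776 bp downstream (62 and 120). In Pou2f1, 7 of 28 were intronic and 12 lay in Cd247, a T cell receptor subunit gene whose 3′ part overlaps the 3′ end of Pou2f1. The Pou2f1 intron peaks 1388 bp and 35448 bp into the gene had values of 50 and 107, and of 48 and 106. Pou6f1 had no distal peak in its gene body, and the highest in its window, of 75 and 130, lay at the start of the lincRNA gene 1110013H19Rik.

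The overlap of the replicates was read in both directions. Of replicate 1 peaks in the window, 77.2% overlapped a replicate 2 peak at Pou3f3, 66.1% at Pou3f1, 65.0% at Pou3f2, 63.0% at Pou3f4, 52.8% at Pou2f2, 34.0% at Pou2f1 and 32.7% at Pou6f1, against 24.7% over the genome. Of replicate 2 peaks, 56.2% (Pou2f2) to 76.5% (Pou3f3) overlapped a replicate 1 peak, against 64.0% over the genome, so the genes differed less in that direction. Pou2f1 (63.0%) and Pou2f2 were below the genome-wide share there. These shares rest on a 1 bp overlap, and whether closely spaced peaks met it more easily was not tested. At 75 bp the shared peaks fell from 62 to 45 at Pou3f3, 39 to 26 at Pou3f2 and 17 to 13 at Pou3f4. They fell from 16 to 13 at Pou6f1, 34 to 31 at Pou2f1, 36 to 34 at Pou3f1 and 27 to 26 at Pou2f2. The peaks at Pou2f1 that were found in replicate 1 alone had a median value of 6.5, and those that overlapped had 18. The replicates' values had a Spearman correlation of 0.891 over the 231 shared peaks, against 0.899 over all shared peaks. By gene it ranged from 0.664 at Pou3f1 (36 peaks) to 0.969 at Pou2f2 (27 peaks), and the peaks of a gene share their locus and libraries, so no test was made.

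The octamer ATGCAAAT, or ATTTGCAT on the other strand, occurred in 3 of the 190 distal peaks of the POU genes (1.58%, 95% exact binomial interval 0.327 to 4.54%), against 2.07% of 140418 shared distal peaks over the genome. In flanking windows of the same 150 bp placed 1 kb away it occurred in 1.32% around the POU peaks and in 0.974% around all. Neighbouring shared peaks were a median of 480 bp apart at Pou3f3 and 620 bp at Pou3f2. Flanking windows there can fall on other peaks, so they are not a background free of peaks. The variant ATGCTAAT occurred in 0 of 190, which allows up to 1.92%, against 1.37% of all shared distal peaks. The form ATGCNAAT, which takes in both, occurred in 4 of 190 (2.11%), against 3.91%. The intervals cover counting error only and hold the genome-wide share in each of these 3 searches at 150 bp. In 300 bp around the same centres, ATGCNAAT occurred in 4 of 190 (2.11%, interval 0.577 to 5.30%), against 6.73% of all, and the variant in 0 (up to 1.92%), against 2.29%, both outside the interval. The octamer itself stood at 1.58% (0.327 to 4.54%), against 3.63%, inside it. The peaks share 7 loci and no test was made, so the direction at 300 bp rests on few matches. The octamer was in 0 of the 8 RefSeq promoter windows of 6 POU genes, against 1.74% of all 32851.

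Of 8 other POU genes read here, 6 had a shared promoter peak, against 68.9% of all genes, a share near the background. Pou4f1, a factor of sensory and midbrain neurons, had the strongest, at 94 in replicate 1 and 140 in replicate 2, followed by Hdx (69 and 124), Pou2f3 (53 and 102), Pou4f2 (46 and 111), Pou4f3 (45 and 107) and Pou5f1, the pluripotency factor Oct-4 (24 and 79). Pou1f1, a pituitary factor, had 45 in replicate 2 and none in replicate 1, and Pou5f2 had none. The strongest promoter value of each of the 7 genes above exceeded those of all 8 in replicate 1 except that Pou6f1 (78) was below Pou4f1, and in replicate 2 except that Pou3f4 (136) and Pou6f1 (133) were below Pou4f1.

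A list of 4 genes for partners and coactivators of POU proteins and a list of 3 neural genes bound by class 3 proteins were read in the same way. Sox2, the progenitor factor that pairs with class 3 proteins, had values of 95 in replicate 1 and 141 in replicate 2 and 54 shared peaks in its window. Sox11 had 116 and 145 with 33 shared peaks, and Sox4 122 and 143 with 25. Pou2af1, the B cell coactivator of Pou2f1 and Pou2f2, had the weakest, at 6 and 25. Of the neural genes, Nes, the intermediate filament of progenitors, had 75 and 142, Fabp7 75 and 122, and the Notch ligand gene Dll1 76 and 134. All 4 partner genes and all 3 neural genes had a shared promoter peak, against 68.9% of all genes.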

How the data were processed

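DNase-seq had been run on midbrain of mouse embryos at 14.5 days, in 2 biological replicates of 1 group. Per the labels the files are on mm10. Which aligner and peak caller were run is not given in the sources used here. The authors deposited, for each replicate separately, peaks with a signal value of at most 150 and hotspots with a −log10 q value of at most 100. Whether either is scaled to depth is not given, and the depth is unknown.

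Genes were the 21911 named protein-coding genes of GENCODE M21 on chromosomes 1 to 19, X and Y, and sequence was read from GRCm38.p6. Peak positions fell within chromosome lengths in 42 of 42 combinations of chromosome and replicate. Shared peaks, overlapping by at least 1 bp, were described by the replicate 2 interval with the highest overlapping replicate 1 value. Motifs were exact matches on both strands within the 150 bp of a peak. Intervals are 95% exact binomial. The work used pysam 0.24.0, scipy 1.17.1, pandas 2.3.3, matplotlib 3.10.9 and numpy 2.4.6 under Python 3.11.15. The overlap step, tested on simulated data, found 2000 of 2000 planted shared peaks among 5000.

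The genes, lists and rules were chosen with earlier results of these data known, so counts are set beside those of all genes and no list was tested. By rule, the text names the 7 genes, 8 other POU genes, 4 partners, 3 neural genes, neighbouring genes, and for each gene the strongest promoter peak and the 3 highest distal peaks. Distances of 10, 15 and 20 kb from the 5′ end, the genes leading that count, CCAAT in promoter windows and peaks, and the octamer peak at a Pou2f1 promoter were chosen after values were seen. Some genes that the rule names are not reported here. Alternatives were the promoter window, starts, flank, overlap, strength of peaks, hotspots, motif form and each replicate alone.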

Additional observations from a re-analysis of the deposited data

How the results depend on the processing

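The count of 7 genes with an open promoter was 7 under every alternative run: windows of 500 bp and 2 kb, the 5′ end or coding starts alone, an overlap of 75 bp, the strongest replicate 1 peaks, the upper values of each replicate, hotspots, and each replicate alone. In the gene bodies alone the 231 shared peaks fell to 63 and the 190 distal peaks to 49, since the windows are shorter. With a replicate left out the windows held 331 to 430 peaks, and 281 to 370 distal ones. The share of distal peaks with the octamer was 1.42 to 1.62% with a replicate left out, 1.58% in 300 bp and 2.11% for ATGCNAAT. Flanks of 20 or 100 kb, a 75 bp overlap and stronger peaks kept both totals within 1.5 times. Counts of single genes moved more, with 19 of the values for shared peaks and 21 for distal peaks over 1.5 times from those reported: Pou3f1 had 16 shared peaks with 20 kb flanks (36 reported), Pou2f2 63 with 100 kb flanks (27 reported) and Pou6f1 49 with replicate 1 alone (16 reported). Pou3f3 came first in peak number in all settings except with replicate 1 alone, where Pou2f1 had 103 and Pou3f3 79; the cause was not tested. No paired analysis was possible because there was 1 group. Depth was unknown, so a peak missing in one replicate is not shown to be absent.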
